A study of Arabidopsis thaliana with 24 samples.

Results

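The genes described here were lowered in Arabidopsis thaliana seedlings in each of the 2 genotypes whose labels carry atx4 and atx5 but no other atx mutation, relative to wild-type Col-0. ATX4 and ATX5 encode closely related SET-domain histone methyltransferases of COMPASS, the group of complexes that methylates lysine 4 of histone H3. For each gene the log2 of the group mean plus 1 was compared with that of Col-0 in the same table. A gene was taken when its Col-0 mean was 10 or more in both tables and the difference was -1 or less in atx4/5 and in atx4/5;jmj24. After 12 listed genes were left out, 8 of which passed these thresholds, 218 of the 32548 genes measured remained. They are called the member genes.

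The study consists of 24 RNA sequencing libraries from whole seedlings, 11 days old, raised on MS plates in days of 16 h (23 °C) and nights of 8 h (22 °C). They were deposited as 3 sets, each normalised by itself and each with its own pair of wild-type Col-0 libraries. In the first set these stood beside ino80, and in the second beside jmj24 and the triple mutant atx4/5;jmj24. The third set was the largest, and its mutants were the doubles atx4/5 and atx1/2, the quadruples atx2/3/4/5 and atx1/2/4/5, the triple jmj24/26/28, and WDR5A_RNAi, an RNA interference line against a core COMPASS subunit. Each group had 2 libraries per set. The labels give the mutations as homozygous without naming alleles, and whether replicates were grown separately is not stated, so the spread between libraries may be technical. Values are normalised read counts, which are not scaled for gene length. In whole seedlings, fewer cells of a type and less RNA per cell cannot be told apart.

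Methylation of lysine 4 of histone H3 marks the start and the body of transcribed genes, with the trimethylated form next to the start site. The ATX proteins fall into ATX1 and ATX2 on one side and ATX3, ATX4 and ATX5 on the other, and WDR5A is a subunit that the complexes share. JMJ24, JMJ26 and JMJ28 are proteins with a JmjC domain, a fold best known from histone demethylases. INO80 is the motor of a complex that moves nucleosomes and acts on the histone variant H2A.Z.

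The transcripts of the targeted genes were examined first, because they check the labels. JMJ24 (AT1G09060) had 276 and 321 in jmj24 and 263 and 285 in atx4/5;jmj24, against 1515 and 1416 in the Col-0 libraries of set 2. ATX4 (AT4G27910) had 50.7 and 35.2 in atx4/5, against 502 and 498 in Col-0, and it had 144 and 114 in atx4/5;jmj24, against 495 and 452. ATX5 (AT5G53430) had 237 and 224 in atx4/5, against 472 and 547 in Col-0. Both genes were thus below every Col-0 library of the set in atx4/5, but ATX5 was not low in the libraries labelled atx4/5;jmj24, where it had 518 and 638 against 434 and 476. In the quadruple mutants both genes were low. Mean ATX4 was 29.5 in atx1/2/4/5 and 42.7 in atx2/3/4/5, against 492 in atx1/2. Mean ATX5 was 37.8 and 110, against 504. Mean JMJ24 was 249 in the jmj mutant of set 3, against 1580 in atx1/2. Mean ATX1 was 181 in atx1/2, against 258 in Col-0 of set 3. Further labels, like that of atx5 in atx4/5;jmj24, were not borne out by transcript level. ATX3 was higher in the libraries labelled atx2/3/4/5 (740 and 640) than in Col-0 (388 and 384). ATX2 had 1313 and 1318 in atx1/2, 1382 and 1347 in atx1/2/4/5 and 1337 and 1371 in atx2/3/4/5, within the range of Col-0 (1273 and 1393). ATX1 had 568 in replicate 1 and 191 in replicate 2 of atx1/2/4/5. WDR5A had 870 and 965 in the libraries labelled WDR5A_RNAi, against 86.9 and 113 in Col-0. Whether reads of the RNA interference construct entered this count was not tested, so the level does not settle this label. Where in the mutated genes the insertions lie is not given in the sources used here. Reads from outside an insertion therefore check nothing, and the group names below are the labels.

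The member genes were chosen by these measured differences from Col-0 in atx4/5 and atx4/5;jmj24, which are therefore a description and were not tested. In atx4/5 the median difference was -1.59 and the lowest -4.55, and in the libraries labelled atx4/5;jmj24 the median was -1.70 and the lowest -5.39. Over the 19864 genes with enough signal in Col-0 the medians were 0.01 and -0.00. Of those genes, 400 (2.01%) passed the threshold in atx4/5 and 475 (2.39%) in atx4/5;jmj24. The 226 genes that passed both made up 56.5% of the first and 47.6% of the second. Just inside the threshold lay AT2G29500, a small heat shock protein, with -1.002 and -1.90, and AT1G53060, with -1.003 and -1.04. Just outside lay NAC004 with -0.999 and -2.16 and AT2G29060 with -1.24 and -0.999.

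**Figure D1:**
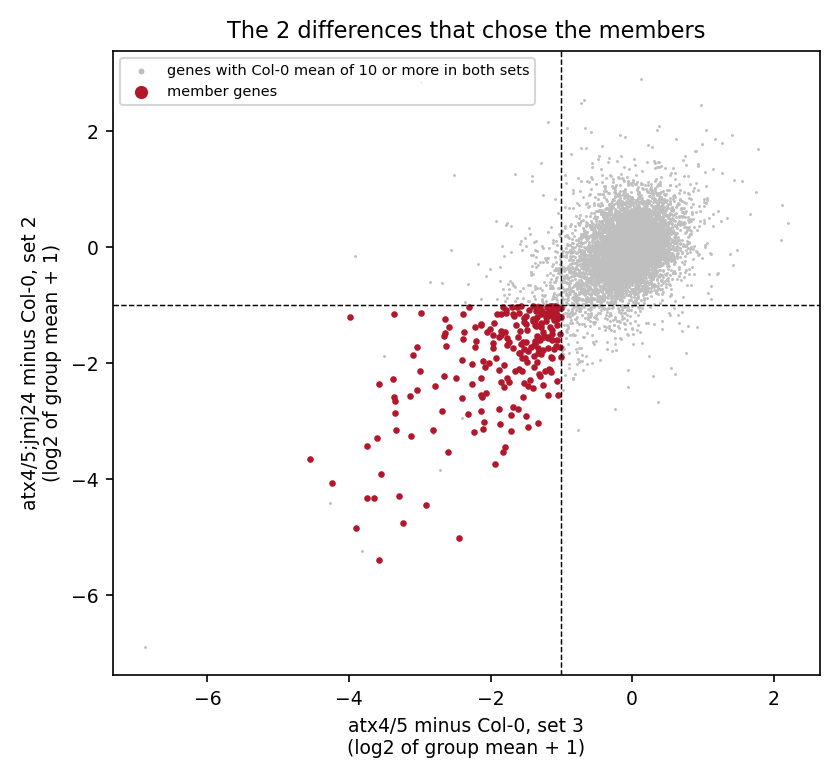
Each point is 1 gene, with its log2 difference between atx4/5 and Col-0 in set 3 on the x axis and between atx4/5;jmj24 and Col-0 in set 2 on the y axis. The 218 member genes (red) fill the corner at or below -1 on both axes (dashed lines), and their lowest values reach -4.55 and -5.39.

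The member genes were weakly expressed. Their median Col-0 level in set 3 was 46.5 normalised counts, against 462 over all genes with enough signal, and their highest was 14144. Genes for non-coding RNA made up 21 of the 218 (9.63%), of which 13 are annotated as long non-coding RNA, while they made up 1.41% of the genes with enough signal. The 197 protein-coding members had a median gene length of 2016 bases and 3 exons, against 2423 bases and 4 exons. The 218 members lay on all chromosomes, with 43, 38, 46, 39 and 52 on chromosomes 1 to 5. Another gene overlapped 49 of the 218 on the opposite strand (22.5%, against 26.5% of the genes with enough signal), and since the strand of the libraries is not given in the sources used here, reads of such pairs cannot be told apart.

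Among named families, 4 of 16 measured glutamate receptor genes were members, 5 of 30 MADS-box or AGAMOUS-like genes, 6 of 57 GDSL lipase genes, 3 of 29 serine carboxypeptidase-like genes and 2 of 10 genes of nuclear factor Y subunit A. For comparison, 1.098% of all genes that the rule could take were members. F-box genes were members in 6 of 161 cases. These families and the functional groups below were drawn up after the values were seen and received no test as groups.

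The members were then followed in libraries that had no part in choosing them. The comparison nearest to the choice set atx1/2/4/5 against atx1/2, which differ in their labels by atx4 and atx5. A gene is called higher or lower when its adjusted p from limma, with Benjamini-Hochberg adjustment over all genes tested, is under 0.05. With 2 libraries a group an exact permutation test cannot go below 0.333, so these calls rest on the spread that limma pools over groups and genes. In atx1/2/4/5, 125 of the 218 members were called lower than in atx1/2 and 2 higher, where 15.9% of all 24843 genes tested were called lower and 15.1% higher. The median member differed by -1.15 on the log2 scale and the median gene by 0.00. Without replicate 1 of atx1/2/4/5, the library with the high ATX1 level, 105 members were called lower.

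The smallest adjusted p among the members belonged to AT2G40520, a nucleotidyltransferase family gene. It had 22.5 and 24.4 in atx1/2/4/5, and 307 and 311 in atx1/2. The atx4/5 libraries had 49.2 and 61.7 and the libraries labelled atx2/3/4/5 had 45.6 and 44.2, below every library of set 3 not labelled atx4 and atx5, the lowest of which had 187. Its log2 difference between atx1/2/4/5 and atx1/2 was -3.67 ± 0.17 (SE, adjusted p = 1.95e-09). In set 2 it had 249 and 222 in jmj24, within the range of Col-0 (257 and 217), but 52.2 and 69.1 in atx4/5;jmj24. In ino80 it had 210 and 210, above the 191 and 177 of Col-0 (difference 0.19 ± 0.11, adjusted p = 0.263).

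AT3G46370, a leucine-rich repeat receptor kinase gene, was the next by adjusted p. It had 49.2 and 30.9 in atx1/2/4/5 against 644 and 589 in atx1/2, a difference of -3.95 ± 0.25 (adjusted p = 3.51e-08). It was also low in the libraries labelled atx2/3/4/5 (14.5 and 12.9) and in jmj24/26/28 (32.9 and 38.6). None of these libraries reached the lowest atx1/2 or Col-0 library of set 3, which had 474. In contrast to AT2G40520, its level in jmj24, 22.3 and 25.5, was below both Col-0 libraries of set 2, with 70.0 and 40.4.

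FHL, which with its relative FHY1 carries the far-red photoreceptor phytochrome A into the nucleus, had 19.9 and 21.1 in atx1/2/4/5. The atx1/2 libraries had 153 and 160, and the difference was -2.87 ± 0.20 (adjusted p = 1.16e-07). The atx2/3/4/5 libraries, with 78.8 and 79.0, lay between these and close to atx4/5 (81.6 and 87.1). FHL was the member with the smallest adjusted p among those lower in atx1/2/4/5 than in atx2/3/4/5 (difference -1.89 ± 0.20, adjusted p = 1.91e-05). AT1G49360, an F-box gene that overlaps 2 annotated genes on the opposite strand, had 53.1 and 50.1 in atx1/2/4/5 and 257 and 322 in atx1/2 (difference -2.46 ± 0.16, adjusted p = 4.72e-08).

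Further members among the 12 with the smallest adjusted p in this comparison were GLUR2 and GLR1.1, genes for glutamate receptor-like cation channels, AT3G23480, annotated as a cyclopropane fatty acid synthase, AT3G24100 of the SERF family, AT2G05160, a CCCH zinc finger gene, AT3G03370, COBL2, a COBRA-like gene, and the non-coding AT1G06837. All 12 were called lower in atx1/2/4/5, and this follows from how they were named.

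The stretch of 250 bases before the annotated gene start is shown for AT2G40520, AT3G46370 and FHL, 3 of the 4 members with the smallest adjusted p, and for the floral regulator SEP4, described next. The sequences were cut from the TAIR10.1 assembly of RefSeq and are written 5′ to 3′ on the strand of the gene, with capitals at matches to any of 6 short motifs. The motifs, searched on both strands, were the G-box CACGTG, the W-box core TTGAC, the core ACGTG of the abscisic acid response element, which lies within the G-box, the telo-box AAACCCTA, site II TGGGCC and the TATA box TATAAA.
AT2G40520 (TAIR10.1, chr2:16922087-16922336, plus strand): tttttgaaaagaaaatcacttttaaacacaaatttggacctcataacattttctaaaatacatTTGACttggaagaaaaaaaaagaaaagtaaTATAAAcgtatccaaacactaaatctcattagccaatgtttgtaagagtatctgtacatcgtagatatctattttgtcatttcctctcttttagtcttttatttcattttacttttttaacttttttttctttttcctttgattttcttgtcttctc
AT3G46370 (TAIR10.1, chr3:17051270-17051519, plus strand): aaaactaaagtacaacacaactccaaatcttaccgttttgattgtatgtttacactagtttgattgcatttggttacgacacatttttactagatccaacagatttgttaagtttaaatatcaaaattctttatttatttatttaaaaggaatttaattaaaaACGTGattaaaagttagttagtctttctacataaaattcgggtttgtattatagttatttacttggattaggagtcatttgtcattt
FHL (TAIR10.1, chr5:437115-437364, plus strand): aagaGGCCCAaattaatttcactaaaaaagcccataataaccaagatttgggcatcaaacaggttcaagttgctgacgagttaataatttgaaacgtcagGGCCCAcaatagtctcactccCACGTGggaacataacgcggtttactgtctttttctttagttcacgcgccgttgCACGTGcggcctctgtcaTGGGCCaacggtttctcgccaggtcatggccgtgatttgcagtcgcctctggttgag
SEP4 (TAIR10.1, chr2:1128979-1129228, plus strand): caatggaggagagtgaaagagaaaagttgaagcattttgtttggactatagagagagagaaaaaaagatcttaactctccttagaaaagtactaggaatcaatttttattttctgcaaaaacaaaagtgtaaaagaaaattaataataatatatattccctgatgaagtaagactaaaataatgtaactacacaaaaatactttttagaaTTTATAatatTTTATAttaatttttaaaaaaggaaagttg

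The FHL window holds both the G-box and site II, and the windows of AT2G40520, AT3G46370 and SEP4 hold neither. Over all 218 members the shares with each motif were near those of the 19863 windows of the genes with enough signal. A G-box was found in 8.26% of member windows and 7.27% of all, a W-box core in 47.2% and 45.01%, and a core ACGTG in 26.6% and 23.6%. A TATA box was found in 48.6% and 46.1%, a telo-box in 2.75% and 3.56%, and site II in 11.5% and 16.2%. A match is a string of letters, not a site shown to be bound.

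SEP4 belongs to the SEPALLATA group of MADS-box factors, which with other factors set the identity of floral organs. In the libraries that chose the members it had 46.3 and 81.2 in atx4/5 against 241 and 208 in Col-0, and 31.1 and 31.5 in atx4/5;jmj24 against 344 and 355. Outside them it had 33.3 and 24.7 in atx1/2/4/5 and 10.4 and 14.9 in atx2/3/4/5, against 243 and 241 in atx1/2. It was also low in ino80 of set 1, with 27.9 and 33.1 against 154 and 145. All of these mutant libraries lay below all Col-0 and atx1/2 libraries of their set. The difference was -3.03 ± 0.28 (adjusted p = 1.12e-06) for atx1/2/4/5 against atx1/2 and -2.26 ± 0.19 (adjusted p = 5.41e-05) for ino80 against Col-0.

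The other MADS-box members were AGL8, known as FRUITFULL and a promoter of flowering and fruit growth, and AGL46, AGL87 and AGL94, whose roles are not well described. AGL46 had 3.50 and 2.36 in atx1/2/4/5 against 16.7 and 19.9 in atx1/2, and AGL94 had 1.70 and 2.45 against 17.7 and 18.8. All 5 were called lower in atx1/2/4/5 and in atx2/3/4/5 against atx1/2. Of all genes 15.9% and 20.1% were, and of all members 57.3% and 67.9%. In jmj24/26/28 against atx1/2 4 were called lower, where 3.35% of all genes and 44.95% of all members were. In ino80 against Col-0 3 were called lower, where 11.7% of all genes and 35.3% of the members in the fit were. AGL94 did not pass in jmj24/26/28, where it had 17.36 and 17.8 and overlapped atx1/2. In ino80, AGL94 had 5.75 and 8.78 against 18.8 and 16.4 (adjusted p = 0.0536) and AGL87 had 209 and 210 against 214 and 192 (adjusted p = 0.799).

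Of the 14 other transcription factor and regulator genes, 7 were called lower in atx1/2/4/5 and 8 in atx2/3/4/5, both against atx1/2. Of all genes 15.9% and 20.1% were, and of all 218 members 57.3% and 67.9%. Each functional group is a part of the members. NF-YA5, a subunit of a CCAAT-binding factor with a role in drought, had 15.4 and 23.9 in atx1/2/4/5 against 97.8 and 102 in atx1/2 (difference -2.32 ± 0.33, adjusted p = 5.92e-05), and it overlaps 2 genes on the opposite strand. Its relative NF-YA6 had 58.1 and 29.7 against 170 and 143 (difference -1.88 ± 0.30, adjusted p = 0.000241). TCL1 and CPL3, small MYB proteins that hold back trichome formation, differed by -1.34 ± 0.45 (adjusted p = 0.033) and -1.13 ± 0.41 (adjusted p = 0.0497). ABI5, a bZIP factor of abscisic acid response in seeds and young seedlings, had 10.9 and 24.9 in atx1/2/4/5 and 32.3 and 38.6 in atx1/2, and did not pass (adjusted p = 0.155).

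The 4 glutamate receptor-like members differed in which genotypes were low. GLUR2 had 46.8 and 52.0 in atx1/2/4/5 and 44.6 and 43.1 in atx2/3/4/5, against 244 and 214 in atx1/2, and 104 and 92.0 in jmj24/26/28. GLR2.7 had 16.2 and 14.4 in atx4/5 and 18.9 and 21.8 in jmj24/26/28, against 177 and 207 in atx1/2. In atx1/2/4/5 it had 114 and 106, and in atx2/3/4/5 170 and 149. GLR2.7 was thus lowest in atx4/5 and jmj24/26/28, and both quadruple mutants lay above all 4 of those libraries. The difference of GLR2.7 was -3.17 ± 0.21 (adjusted p = 2.31e-07) for jmj24/26/28 against atx1/2 and -0.26 ± 0.21 (adjusted p = 0.37) for atx2/3/4/5 against atx1/2. GLR1.1 was called lower in 4 of the 6 comparisons, and GLR2.6, at 16.6 and 7.96 in atx1/2, in none.

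The most abundant member was ESM1, a GDSL-type protein that directs the breakdown of glucosinolates towards isothiocyanates. It had 6164 and 6577 in atx4/5 and 6365 and 6997 in jmj24/26/28, against 21753 and 22763 in atx1/2 and 14849 and 13438 in Col-0 of set 3. The atx1/2/4/5 libraries, with 13898 and 16280, overlapped Col-0 and lay below atx1/2. ESM1 had the smallest adjusted p of all members in jmj24/26/28 against atx1/2, with a difference of -1.74 ± 0.08 (adjusted p = 6.94e-10). CDEF1, a cutinase-like protein, had 1664 and 1903 in the libraries labelled WDR5A_RNAi and 3597 and 3459 in atx1/2, the member with the smallest adjusted p there (difference -0.99 ± 0.09, adjusted p = 1.41e-05). Of the 7 lipase members, 3 were called lower in atx1/2/4/5 and 5 in atx2/3/4/5 against atx1/2. Of all genes 15.9% and 20.1% were, and of all members 57.3% and 67.9%. The 3 serine carboxypeptidase-like members, SCPL11, scpl23 and SCPL51, were each called lower in both and in ino80 against Col-0. In ino80 11.7% of all genes and 35.3% of the members in the fit were.

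The 6 members with known roles in immune signalling behaved unevenly. CRK18, a cysteine-rich receptor kinase gene, had 172 and 141 in jmj24/26/28 and 274 and 242 in WDR5A_RNAi, against 592 and 663 in atx1/2. In atx2/3/4/5 it had 651 and 484, overlapping atx1/2, with a difference of -0.16 ± 0.14 (adjusted p = 0.42). MPK11, a MAP kinase activated on perception of microbes, had 85.2 and 104 in atx2/3/4/5 against 14.6 and 18.7 in atx1/2, above every other library of set 3. The difference was 2.44 ± 0.33 (adjusted p = 3.02e-05), although MPK11 had 8.08 and 6.08 in atx4/5. The summed level of 20 salicylic acid and immune response genes was 14920 to 16950 in atx2/3/4/5 and 5655 to 6812 in atx1/2, and its part in this result was not tested. NDR1, required for resistance through a class of intracellular receptors, was called lower in atx1/2/4/5 (80.2 and 66.8 against 109 and 141, adjusted p = 0.00966) and in no other comparison. CRK16, which lies 4222 bases from CRK18 on chromosome 4, was called in none.

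Metabolic members included 9 genes, of which 7 were called lower in atx1/2/4/5 and all 9 in atx2/3/4/5 against atx1/2. Of all genes 15.9% and 20.1% were, and of all members 57.3% and 67.9%. AT3G23480 had 60.6 and 35.5 in atx1/2/4/5 and 22.8 and 18.7 in atx2/3/4/5, against 406 and 410 in atx1/2, and 22.2 and 10.6 in ino80 against 132 and 175 in Col-0. It overlaps an annotated gene on each strand. BAM6, a beta-amylase gene that overlaps a gene on the opposite strand, had 17.0 and 2.69 in atx1/2/4/5, 11.3 and 3.75 in atx2/3/4/5 and 209 and 145 in atx1/2. The libraries of both quadruple mutants overlapped each other and lay below both atx1/2 libraries. The difference of BAM6 for atx1/2/4/5 against atx1/2 was -4.42 ± 0.68 (adjusted p = 0.000831). Of 15 transport genes, 6 were called lower in atx1/2/4/5 against atx1/2, where 15.9% of all genes and 57.3% of all members were. Among them was DUR3, a urea transporter gene with 242 and 149 against 393 and 344 in atx1/2 (difference -0.95 ± 0.20, adjusted p = 0.00154).

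CHR42, also known as CLSY2, is a chromatin remodeller of the CLASSY family that serves RNA-directed DNA methylation. It had 1.73 and 1.60 in atx1/2/4/5 and 0.0293 and 6.70 in atx2/3/4/5, against 35.4 and 43.0 in atx1/2, and it passed in both (adjusted p = 0.00412 and 0.00368). In atx4/5 it had 11.4 and 3.89 against 45.01 and 63.5 in Col-0. In ino80 it had 29.9 and 22.4 against 32.3 and 27.6 and did not pass (adjusted p = 0.654). AT4G11400, a gene with ARID, ELM2 and MYB-like domains, was listed at 0 in both libraries of atx4/5, atx1/2/4/5 and atx2/3/4/5 and at 13.3 and 22.5 in Col-0 of set 3. Its atx1/2 libraries were also low, at 0.0156 and 3.24, so that the comparisons against atx1/2 did not pass (adjusted p = 0.245 for atx1/2/4/5). AT5G08600, a gene of the U3 ribonucleoprotein family of ribosome assembly, had 26.5 and 13.2 in atx1/2/4/5 against 96.8 and 109 in atx1/2 and 8.69 and 5.83 in ino80 against 78.5 and 116 in Col-0, and passed in both.

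Non-coding genes made up 6 of the 12 members with the lowest mean of the choosing differences. Of the 12, 7 were called lower in atx1/2/4/5 against atx1/2, where 15.9% of all genes and 57.3% of all members were. AT1G06837, which overlaps a gene on the opposite strand, was listed at 0 in every library of atx4/5, atx1/2/4/5, atx2/3/4/5 and jmj24/26/28, and had 24.5 and 20.5 in Col-0 and 35.4 and 34.4 in atx1/2. AT3G07675 had 2.63 and 1.56 in atx1/2/4/5, 7.25 and 5.87 in atx2/3/4/5 and 0 in both libraries of jmj24/26/28, against 56.2 and 59.7 in atx1/2. Both genes were thus separated from atx1/2 in all 3 genotypes. AT3G05945 had 402 and 458 in jmj24, inside or above the range of Col-0 in set 2 (426 and 375), and 8.02 and 9.15 in atx4/5;jmj24. In set 3 it had 77.7 and 99.5 in atx1/2/4/5 and 7.20 and 0.136 in atx2/3/4/5, against 478 and 444 in atx1/2, while Col-0 had 39.9 and 66.5. For this gene Col-0 of set 3 lay below both atx1/2/4/5 libraries, so the direction against Col-0 differed from that against atx1/2.

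AT2G08735 had 0.810 and 2.50 in atx1/2/4/5 against 18.8 and 22.1 in atx1/2, while its jmj24/26/28 libraries, with 15.3 and 5.92, did not pass (adjusted p = 0.393). AT2G05518 had 32.4 and 22.3 in atx1/2/4/5 but 1.06 and 4.52 in atx2/3/4/5, against 87.1 and 52.7. AT2G22821, which overlaps a gene on the opposite strand, was listed at 0 in both atx2/3/4/5 libraries and had 8.82 and 4.66 in atx1/2/4/5, against 21.8 and 19.98. In AT2G05518 and AT2G22821 the atx1/2/4/5 libraries thus lay between atx1/2 and atx2/3/4/5, and neither passed in atx1/2/4/5 (adjusted p = 0.0699 and 0.0585).

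The protein-coding genes among those 12 were AT4G11400 and AT5G08600, described above, AT1G09480, annotated with an NAD(P)-binding fold, and AT5G44565, AT5G03130 and AT1G79170 of unknown function. AT5G03130 was low in each mutant genotype of set 3 except atx1/2 and WDR5A_RNAi, with 2.55 and 4.11 in atx1/2/4/5 and 3.36 and 1.98 in jmj24/26/28, against 64.4 and 49.0 in atx1/2. AT5G44565 had 37.2 and 22.6 in atx2/3/4/5, overlapping the 33.2 and 22.4 of atx1/2, and 2.45 and 2.97 in jmj24/26/28. The direction shared by both choosing groups was thus absent from atx2/3/4/5 for AT5G44565 (difference 0.09 ± 0.47, adjusted p = 0.916). AT1G79170 had 4.40 and 2.32 in atx1/2/4/5 against 21.9 and 26.5, and AT1G09480 had 15.4 and 23.9 against 34.4 and 37.6, which did not pass (adjusted p = 0.198).

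Of the 21 non-coding members, 11 were called lower in atx1/2/4/5 and 19 in atx2/3/4/5, both against atx1/2. Of all genes 15.9% and 20.1% were, and of all members 57.3% and 67.9%. Set directly against each other, atx1/2/4/5 was called higher than atx2/3/4/5 for 10 of the 21, where 8.84% of all genes and 20.2% of all members were. The median difference was 1.18 over the group and 0.30 over all members.

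**Figure D2:**
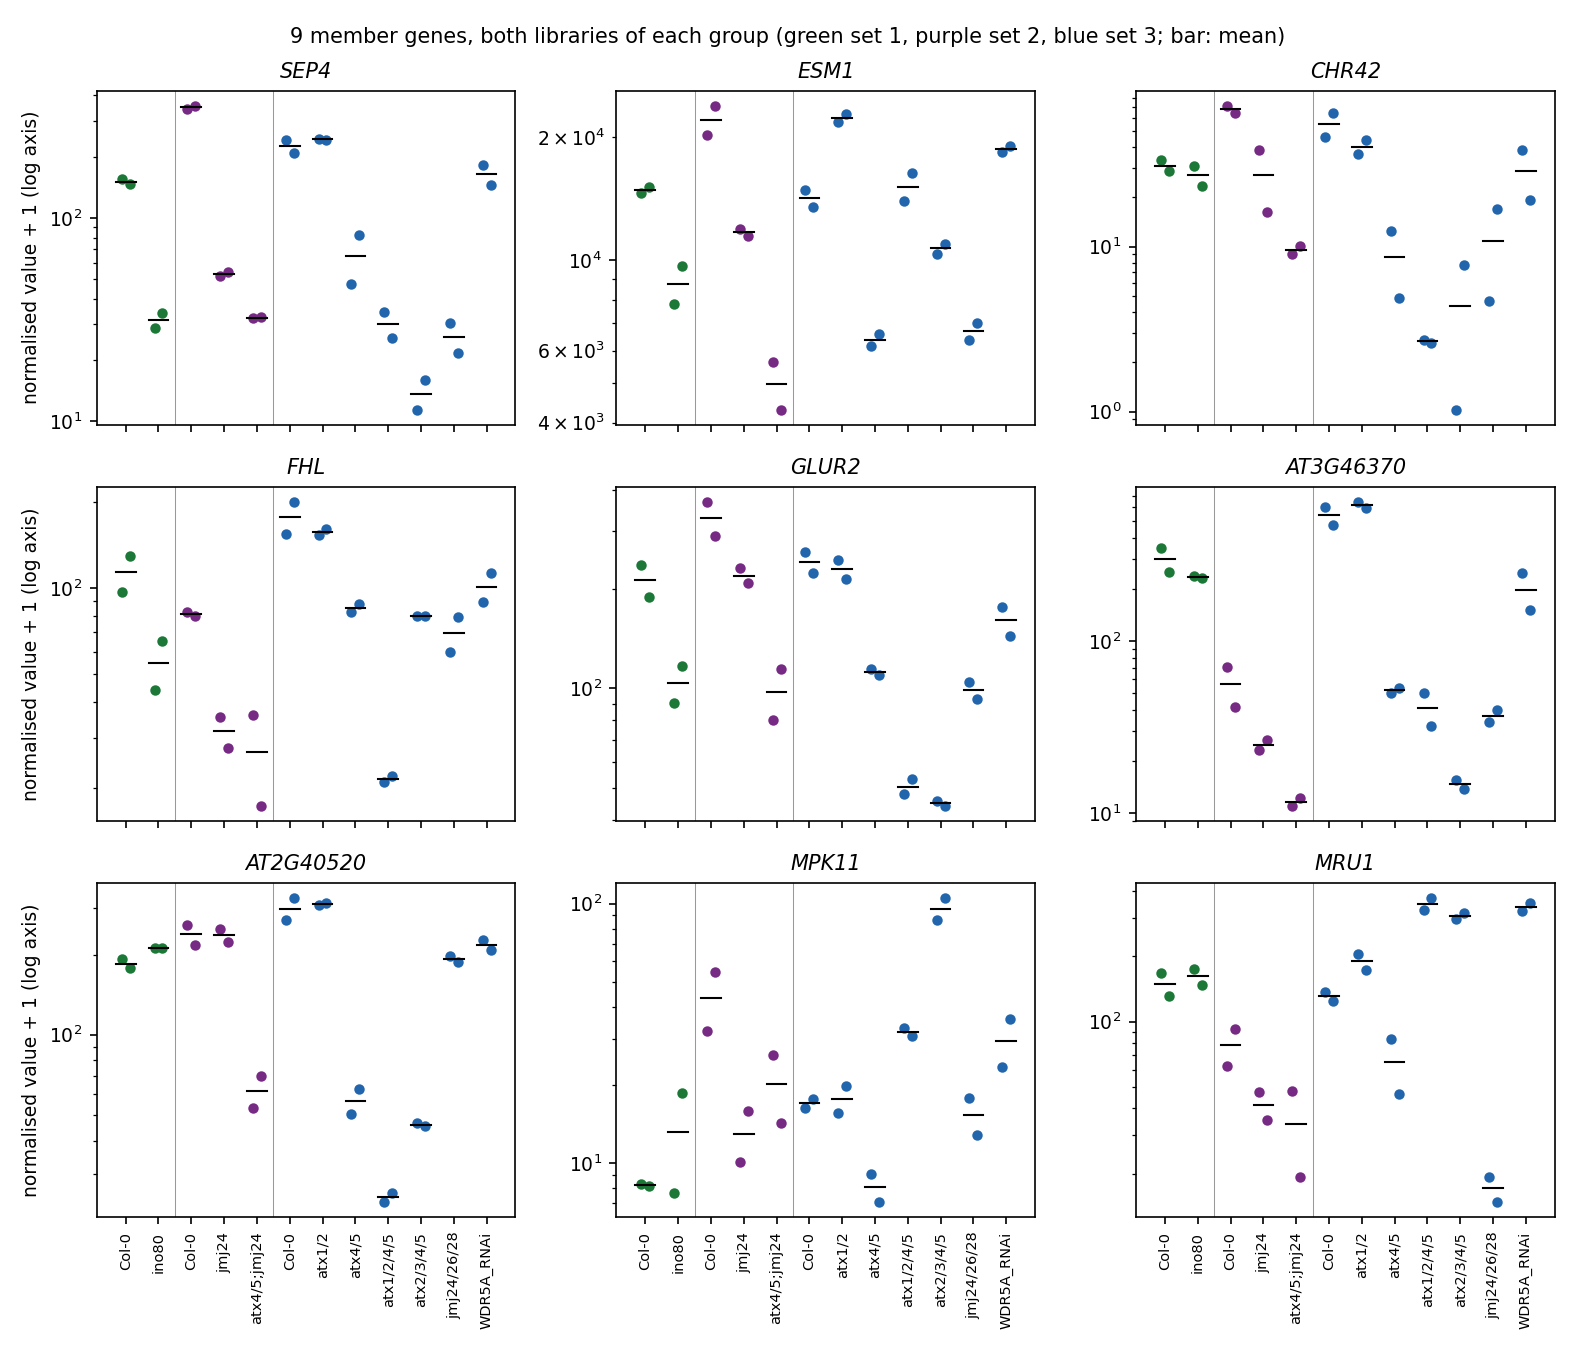
Normalised value plus 1 on a log axis for 9 member genes, with both libraries of each group as points, their mean as a bar and the 3 sets in separate colours. SEP4 is low in every group but Col-0, atx1/2 and WDR5A_RNAi, AT2G40520 is below 70 only in groups labelled atx4 and atx5, and MPK11 and MRU1 rise above Col-0 and atx1/2 in atx2/3/4/5.

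The libraries labelled atx2/3/4/5 were set against the same atx1/2 libraries. There 148 members were called lower and 8 higher, where 20.1% of all genes were called lower and 17.8% higher, and the median member differed by -1.55. Because both comparisons use the atx1/2 libraries, their calls are not independent. Between the libraries labelled atx1/2/4/5 and atx2/3/4/5, 16 members were called lower in atx1/2/4/5 and 44 higher, where 6.76% of all genes were called lower and 8.84% higher. The 16 became 7 without replicate 2 of atx1/2/4/5, and 6 and 8 without replicates 1 and 2 of atx2/3/4/5 in turn, while the 44 became 26 without replicate 1 of atx1/2/4/5. AGL87 led the genes higher in atx1/2/4/5, with 198 and 207 against 80.7 and 46.3 (difference 1.71 ± 0.19, adjusted p = 3.44e-05), followed by AT2G29500 and the non-coding AT2G18735. After FHL, the genes lower in atx1/2/4/5 were led by CRK18 and AT1G17830, a gene of unknown function with 118 and 153 against 304 and 253. AT1G17830 and AT1G78410, a VQ motif gene, followed MPK11 among the 8 members higher in atx2/3/4/5 than in atx1/2.

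Both quadruple mutants also differed from atx1/2 in tissue markers. Of 11 nuclear photosynthesis genes, 10 were lower in atx1/2/4/5 and 11 in atx2/3/4/5, and of 11 seed markers 8 were higher in each. The summed photosynthesis level was 1461620 to 1499380 in atx1/2/4/5 and 1218560 to 1271130 in atx2/3/4/5, against 2219470 to 2231360 in atx1/2. The summed seed level was 2315 to 5584 and 2118 to 2383, against 36.1 to 247. Col-0 of set 3 had a seed level of 297 to 537, above atx1/2, and atx4/5 had 293 to 1029. In atx4/5 the summed photosynthesis level, 2263170 to 2286550, lay within the range of Col-0 of set 3 (2157370 to 2293760), and in atx4/5;jmj24 it was 886697 to 920560, below the 1070810 to 1091340 of Col-0 of set 2. Of the 8 jasmonate response genes 7 were in the fit, and all 7 were called higher in both quadruple mutants against atx1/2, where 15.1% and 17.8% of all genes were. Their median difference was 1.502 in atx1/2/4/5 and 2.24 in atx2/3/4/5. Of the 20 salicylic acid and immune response genes, 7 were higher in atx1/2/4/5, and 9 were higher and 1 lower in atx2/3/4/5. In atx2/3/4/5 5 of 8 heat shock genes were lower. The part of these shifts in the members' values was not tested. Root markers were called lower for 2 and higher for 1 of 10 genes in atx1/2/4/5 against atx1/2.

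**Figure D3:**
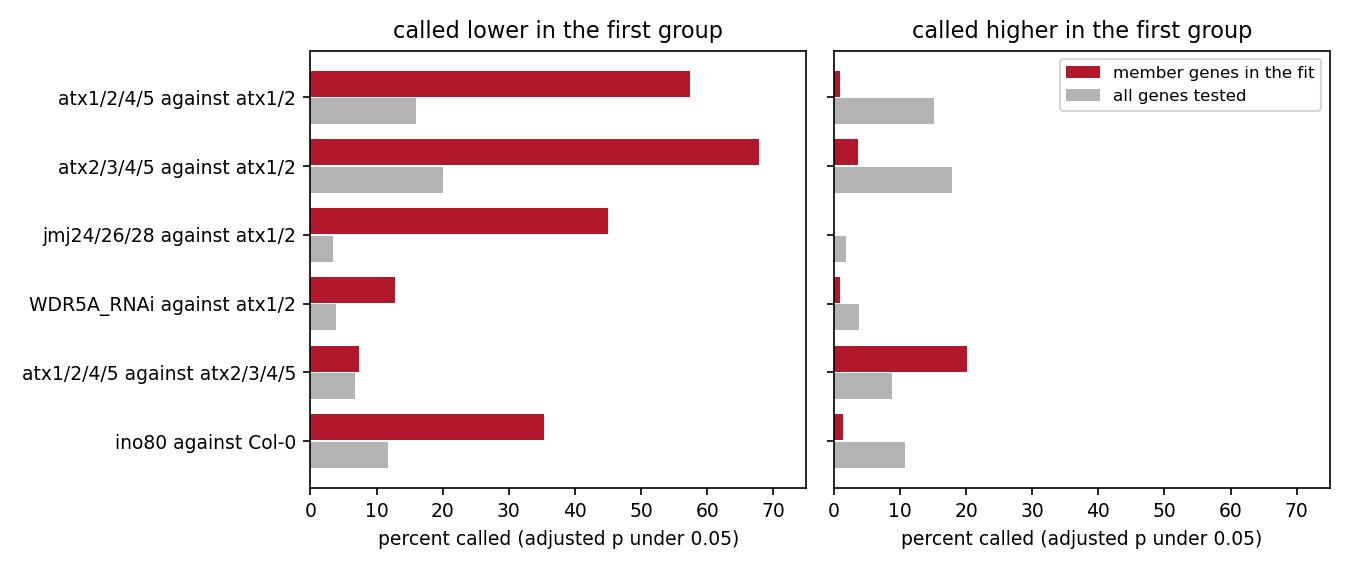
Bars give the percentage of member genes (red) and of all genes tested (grey) called lower (left) or higher (right) in the first group of each comparison, at an adjusted p under 0.05 in limma. Members were called lower at 57.3%, 67.9% and 44.95% in the upper 3 comparisons, against 15.9%, 20.1% and 3.35% of all genes.

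The triple mutant jmj24/26/28 and atx1/2 both lack atx4 and atx5 in their labels. In jmj24/26/28, 98 of 218 members were called lower than in atx1/2, where 3.35% of all genes were, and none was called higher, where 1.82% were. At an unadjusted p under 0.05 in limma, 156 were lower and 0 higher. ESM1 led this comparison, followed by AT4G04750, a major facilitator transporter gene with 164 and 191 against 801 and 720 in atx1/2, and AT3G46370. ATX4 was called higher in jmj24/26/28, with 1205 and 1125 against a mean of 492 in atx1/2 (difference 1.24 ± 0.21, adjusted p = 0.00298). ATX5 was also called higher, with 830 and 818 against a mean of 504 (difference 0.71 ± 0.14, adjusted p = 0.00627). In jmj24 the means of ATX4 and ATX5 were 1124 and 816, against 474 and 455 in Col-0 of set 2. In ino80 they were 658 and 514, against 287 and 310 in Col-0 of set 1. The photosynthesis list had 2 of 11 genes lower, and the seed list 5 of 11 higher. Leaving out single libraries moved the count of members called lower to between 49 and 58, and 49 was reached without replicate 1 of atx1/2.

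In the libraries labelled WDR5A_RNAi, 28 members were called lower than in atx1/2 and 2 higher, where 3.88% of all genes were lower and 3.74% higher. CDEF1, CRK18 and AGL87 led those that were lower. The 2 that were higher were PRR3, a pseudo-response regulator of the circadian clock, and MRU1. PRR3 had 55.1 and 63.8 against 28.1 and 25.5 in atx1/2, while Col-0 of set 3 had 51.1 and 68.4. Its Col-0 level in set 2 was 857 and 795. The sets were normalised separately, but the column totals of these Col-0 libraries were much closer than their PRR3 levels. They were 25.9 M and 25.7 M in set 2, and 29.2 M and 28.4 M in set 3. The source of the gap was not tested. Without replicate 2 of WDR5A_RNAi 5 members were called lower, and without replicates 1 and 2 of atx1/2 in turn 8 and 9, so this count rests on single libraries.

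In set 1, which shares no library with the others, 76 of the 215 members in the fit were called lower in ino80 than in Col-0 and 3 higher, where 11.7% of all 22934 genes were called lower and 10.7% higher. The median member differed by -0.65 and the median gene by 0.00. AT3G24100 led, with 72.1 and 84.8 against 419 and 400 (difference -2.37 ± 0.13, adjusted p = 6.98e-06), then the non-coding AT3G05945, with 49.1 and 50.7 against 276 and 345, and MLP328, a major latex protein-like gene, with 332 and 277 against 954 and 879. AT3G24100 overlaps a gene on the opposite strand. The 3 that were higher were AT5G35480, the non-coding AT2G07042 and CLE21, which encodes a small signalling peptide of the CLAVATA3 family, with 27.0 and 20.4 against 8.39 and 12.2. Photosynthesis genes were lower for 8 of 11 in ino80, and the root list had 2 of 10 lower and 6 higher. Of the 11 seed markers 7 were in the fit and 3 were called higher in ino80, with a median difference of 3.51. The summed seed level was 125 to 1059 in ino80 and 9.27 to 24.9 in Col-0. The part of these shifts in the members' values was not tested. Without ino80 replicate 1 or 2, 16 and 19 members were called lower, and without Col-0 replicate 5 or 6, 31 and 33.

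Of the 125 members lower in atx1/2/4/5 against atx1/2 and the 76 lower in ino80 against Col-0, which share no library, 58 were in both. They made up 46.4% of the first and 76.3% of the second. Over all 22782 genes in both fits, the corresponding shares were 38.2% and 55.6%. Members were, however, called lower more often than all genes in each comparison alone. The rates were 57.3% against 15.9% in atx1/2/4/5, and 35.3% against 11.7% in ino80. Higher rates raise the shared part by themselves, so these shares do not show closer overlap among members. The ino80 calls also fell when single libraries were left out, as given above.

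**Figure D4:**
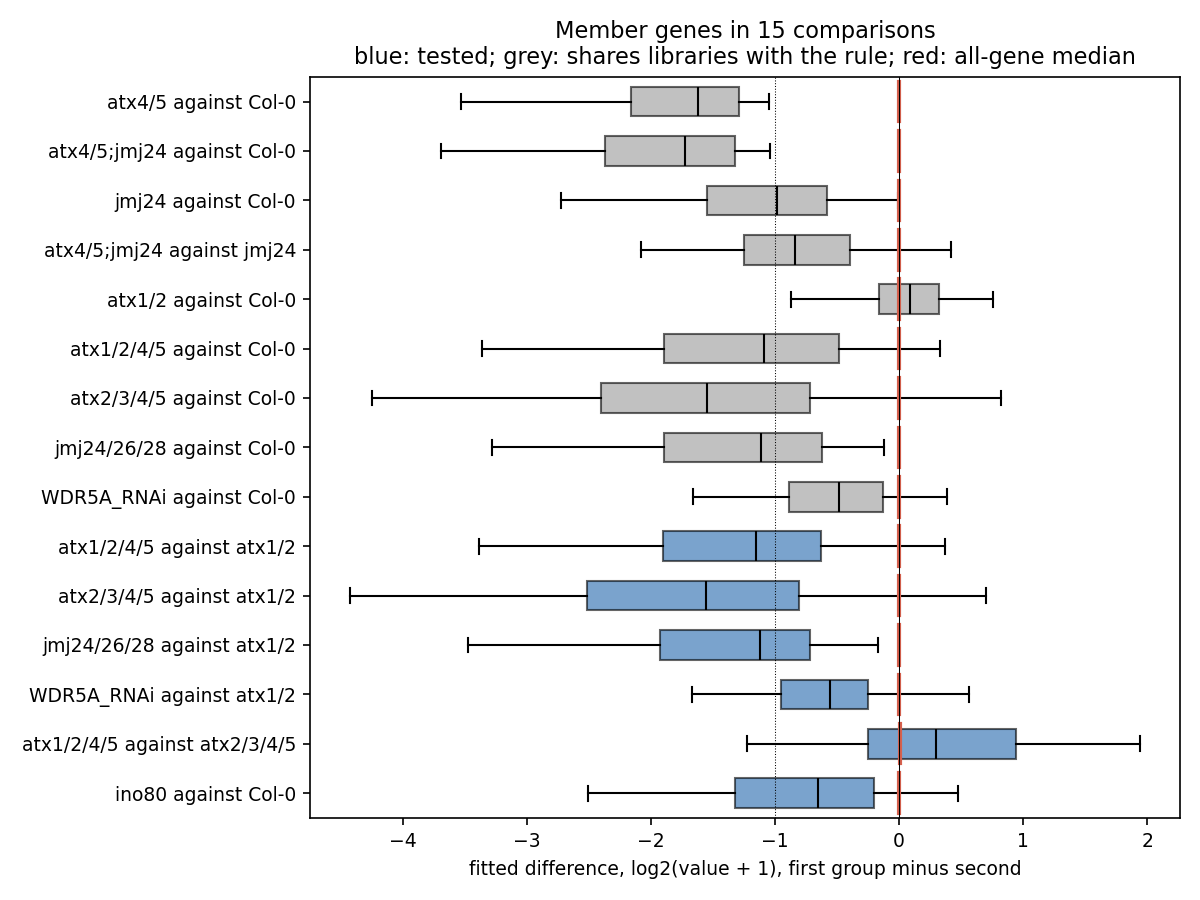
Boxes give the quartiles, and whiskers the 5th to 95th percentiles, of the fitted log2 differences of the member genes in 15 comparisons, blue where tested and grey where libraries are shared with the choice of members, with the median of all genes tested in red. The median lies at -1.15, -1.55, -1.12 and -0.56 in the 4 comparisons against atx1/2 and at -0.65 in ino80, while the median of all genes stays near 0.

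The single mutant jmj24 shares its Col-0 libraries with the choice of members, so its values are described without a test. The median member differed from Col-0 by -0.98, 104 members differed by -1 or less, as did 3.31% of all genes, and 207 of 218 lay below 0. The choice of members by low values relative to the same Col-0 libraries favours this direction. Between atx4/5;jmj24 and jmj24 the median was -0.84, and 98 members differed by -1 or less, as did 3.32% of all genes. The members were also chosen by low values in atx4/5;jmj24, which favours this direction too. In some members jmj24 lay above -0.5 and atx4/5;jmj24 was lower than jmj24 by 1 or more. Examples were AT2G40520 (-0.01 ± 0.18 and -1.95 ± 0.18), AT3G05945 (0.10 ± 0.18 and -5.49 ± 0.18) and COBL2 (-0.20 ± 0.21 and -1.34 ± 0.21). The rule held atx4/5;jmj24 at -1 or less against Col-0, so a jmj24 level near Col-0 largely sets this pattern in advance. Others were already low in jmj24 and differed from it by less than 1 SE in atx4/5;jmj24, such as scpl23 (-3.53 ± 0.57 and -0.02 ± 0.57) and CDEF1 (-1.10 ± 0.22 and 0.02 ± 0.22). In further members both differences were -1 or less, as for AT5G08600 (-2.38 ± 0.35 and -2.03 ± 0.35) and AT3G46370 (-1.13 ± 0.37 and -1.10 ± 0.37).

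The double mutant atx1/2, also compared with the Col-0 libraries that chose the members, lay near them at the median. The median member differed by 0.09, with quartiles of -0.16 and 0.32, and the median gene by 0.00. However, 9 of the 218 members (4.13%) differed by -1 or less, against 1.93% of all genes. Against the same Col-0, 116 members differed by -1 or less in atx1/2/4/5 (5.94% of all genes), 140 in atx2/3/4/5 (7.43%), 123 in jmj24/26/28 (4.24%) and 43 in WDR5A_RNAi (3.49%).

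**Figure D5:**
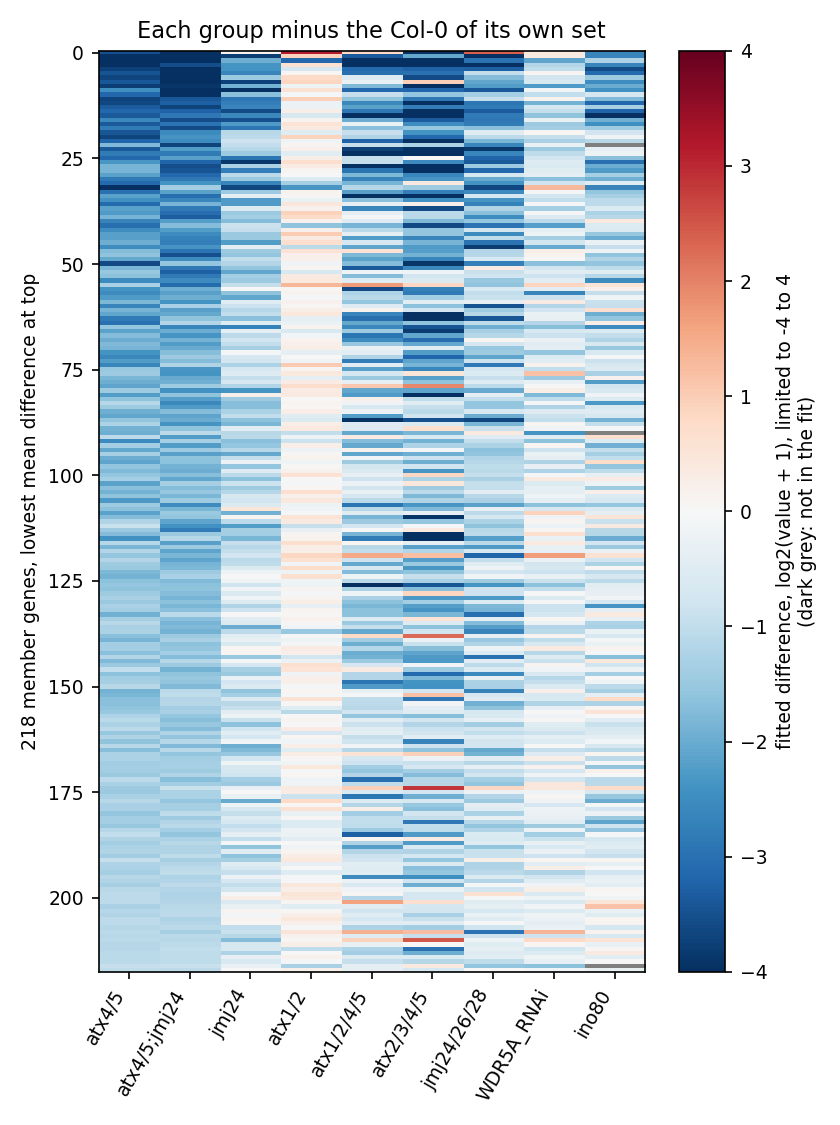
Rows are the 218 member genes, ordered from the lowest mean of the choosing differences at the top, and columns are fitted log2 differences of each mutant from the Col-0 of its own set. The atx1/2 column is pale, with a median of 0.09, the jmj24 column is lower, with a median of -0.98, and single rows turn red in both quadruple mutants.

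Some members lie close together. MRU1, a gene named for its rise in a methionine-overproducing mutant, and AT5G35480 stand 220 bases apart on chromosome 5. MRU1 had 325 and 369 in atx1/2/4/5, 295 and 313 in atx2/3/4/5 and 18.4 and 13.8 in jmj24/26/28, against 205 and 172 in atx1/2. AT5G35480 had 180 and 197, 143 and 161, and 2.98 and 11.9, against 164 and 85.3. Both were thus lowest in jmj24/26/28, where each was called lower (adjusted p = 1.37e-07 and 0.000838), and neither was low in the quadruple mutants. MRU1 was 1 of the 2 members called higher in atx1/2/4/5 than in atx1/2 (difference 0.88 ± 0.22, adjusted p = 0.00674). The other was AT3G16670, a Pollen Ole e 1 family gene, with 1008 and 458 against 212 and 272.

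FOP1, annotated as a WSD1-like acyltransferase, lies 17778 bases from ATX5 on chromosome 5. It had 9.20 and 6.12 in atx4/5, 3.39 and 5.77 in atx1/2/4/5 and 2.23 and 8.92 in jmj24/26/28, against 30.1 and 25.6 in atx1/2. The jmj24/26/28 label does not carry atx5. Whether the position of FOP1 near ATX5 has a part in its low level in the libraries labelled atx5 was not tested. The other neighbours within 5 annotated genes were AT4G04750 with AT4G04760, SLAH4 with AT1G62290, AT1G08903 with AT1G67150, AT2G01400 with AT2G01422, AT2G07042 with AT2G05075, AT3G16650 with AT3G16670, AT4G13820 with AT4G13860, PRR3 with AT5G60142 and AT5G50550 with AT5G50565. SLAH4, an anion channel homologue, and AT1G62290 differed in jmj24, at -1.49 ± 0.59 and 0.08 ± 0.20. AT5G50550 and AT5G50565 each have a near-identical copy elsewhere, as have AT3G60180 and AT1G50390, and their values are uncertain.

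Pathway lists of 123 genes in 11 sets were also counted, and only AGL8 in them was a member. Of 11 COMPASS and related methyltransferase genes, ATX4 and ATX5 were called lower and ATX3 higher in atx4/5 against Col-0, where 2.27% of all genes were called lower and 0.962% higher. Of 15 genes of DNA methylation and demethylation, ROS1 and DML2, which encode DNA demethylases, were called lower in atx4/5 and RDR2 higher. In atx1/2/4/5 against atx1/2, ROS1, DML2 and DML3 were called lower and MET1, the main CG methyltransferase gene, higher, where 15.9% of all genes were called lower and 15.1% higher. Of 12 flowering time genes, SOC1, SVP and FUL (AGL8) were called lower in atx1/2/4/5 against atx1/2 and CO higher, beside the same shares of all genes.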

How the data were processed

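Per the labels' protocols, RNA of whole seedlings was sequenced as 150-base paired or 50-base single reads, and which library had which is not stated. Per the submitters' processing notes, HISAT2 2.2.0, edgeR and the build TAIR10 were used. The read counter, the strand setting and filters are not given in the sources used here. The authors deposited 3 tables of normalised signal. Judged from the values, which are not whole, these are read counts adjusted table by table to libraries of similar size, a step that no label or header describes. The columns summed to between 18.2 M and 19.7 M (first set), 25.0 M and 25.9 M (second set), 25.2 M and 29.2 M (largest set).

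The values are not raw counts, so the linear models of limma (version 3.58.1, with statmod 1.5.0, in R 4.3.3) were run on log2(value + 1) for all groups of a table, using a mean-variance trend and robust empirical Bayes moderation. Genes that reached 1 in 2 or more libraries were kept. P-values were adjusted by Benjamini-Hochberg over all of them. The model was tested on simulated data. Fold changes on this scale understate those of low genes.

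The member genes, lists and tests were chosen with earlier results of these data known. Genes were named by rank of the choosing differences (12), by adjusted p in atx1/2/4/5 against atx1/2 (12), as up to 3 per direction in each other comparison, by position within 5 genes of each other or of ATX4, ATX5 or JMJ24, and by nearness to the threshold. SEP4 and all other genes named by function were chosen after their values were seen. All 218 members were matched to the TAIR10.1 RefSeq annotation. Promoter windows had been planned from reference tables and were cut from the TAIR10.1 genome instead.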

Additional observations from a re-analysis of the deposited data

How the results depend on the processing

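The number of member genes ranged from 160 to 289 over other pseudocounts, other minimum levels in Col-0 and other scalings, and from 207 to 230 when single libraries were left out. Members called lower in atx1/2/4/5 against atx1/2 (125) and in atx2/3/4/5 against atx1/2 (148) stayed within 1.5 times of these counts under every alternative run, with 95 to 105 and 123 to 134 when single libraries were left out. Without a mean-variance trend, 65 members were called lower in jmj24/26/28 (98), 18 in WDR5A_RNAi (28) and 18 in ino80 (76). With only the 2 groups compared in the fit, 51 were called lower in WDR5A_RNAi. Leaving out single libraries gave 49 to 58 in jmj24/26/28, 5 to 19 in WDR5A_RNAi, 16 to 33 in ino80 and, for atx1/2/4/5 against atx2/3/4/5 (16), 6 to 14. Fewer libraries leave fewer degrees of freedom, and where a group was left with 1 library it was assumed to vary like the others. Single genes were checked in this way only for atx1/2/4/5 against atx1/2. The 23 named results were those of the members ranked first by the choosing differences or by adjusted p in that comparison. Ranking by adjusted p favours firm calls. Of these 23 results, 20 kept their call without each library in turn, and none changed direction. Calls of single genes in the other comparisons were not checked.

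Same-numbered libraries of set 3 deviated together only weakly, with correlations from -0.01 to 0.11, most of them above 0. The replicate numbers are therefore not shown to pair them. With a replicate block, 133 members were called lower in atx1/2/4/5, 156 in atx2/3/4/5, 115 in jmj24/26/28 and 45 in WDR5A_RNAi against atx1/2, and 21 in atx1/2/4/5 against atx2/3/4/5. The ino80 and Col-0 libraries of set 1 share no numbers.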
